A study of Rattus norvegicus with 6 samples.

Results

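The proteasome subunits are the genes whose products build the 26S proteasome, the protease complex that degrades proteins tagged with ubiquitin. The members were listed by name: 14 subunits of the core particle, made of the Psma genes of the alpha ring and the Psmb genes of the beta ring, and 17 subunits of the regulatory particle, made of the Psmc and Psmd genes. Of these 31 genes, 30 were read by at least 1 probe set that the platform annotation gives to that gene alone, among 14217 genes named in this way on the array. Each gene was represented by its probe set with the highest mean log2 signal over all arrays. The only probe set for Psmb6, the caspase-like catalytic subunit, is shared in the annotation with a second gene, and it was not used.

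The core particle is a barrel of stacked rings whose inner chamber holds the proteolytic sites, carried by the beta subunits encoded by Psmb5, Psmb6 and Psmb7, while the alpha rings gate the entrance. The regulatory particle caps the barrel. Its base holds a ring of ATPases that unfold substrates and push them into the chamber, and other subunits bind ubiquitin chains, remove them or hold the cap together. Transcription factors of the Nrf family, above all the one encoded by Nfe2l1, raise the subunit genes together when proteasome capacity falls short, and misfolded mutant SOD1 is among the proteins that the proteasome clears.

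The samples are RNA from primary astrocyte cultures of rat spinal cord. Of the samples, 3 are NonTG, from animals without the transgene. The other 3 are hSOD1G93A, from transgenic rats that carry human superoxide dismutase 1 with the G93A substitution. These rats are a model of familial amyotrophic lateral sclerosis. No drug or other treatment is named for either group, and all cultures were confluent and were kept for 24 hours in supplemented L15 medium before 5 ug of total RNA per array were labelled. Each group has replicates A, B and C. The transgene's promoter, the age of the animals and whether replicates came from separate animals or cultures are not given in the sources used here, so the p-values given here cover the spread between arrays, and part or all of that spread may be technical.

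Signals are the authors' MAS5 intensities, and all arrays had a trimmed mean of 500.16 or 500.17, so they share 1 scale. Astrocyte markers fixed for the check, among them Gfap, Aqp4 and Gja1, were above the level set for dim probe sets (a signal of 66.68) for 8 of 8 genes, and microglia and macrophage markers for 0 of 7. Markers of other cells were also present, with 6 of 6 fibroblast and meningeal, 5 of 6 pericyte and smooth muscle, 6 of 7 neuronal and 5 of 8 oligodendrocyte lineage genes above that level. The summed signal of each of these lists overlapped between the groups, but sums follow the brightest probe sets. Single markers did not overlap: the fibroblast and meningeal gene Dcn was 5.74-fold higher in hSOD1G93A, with an adjusted p of 0.4004 that was the smallest of all probe sets tested in limma, Col1a2 of the same list was lower by a difference of -0.12, and the oligodendrocyte lineage genes Mag and Ugt8 were 1.55-fold and 1.64-fold higher (adjusted p = 0.9997 for each of the 3). The astrocyte gene Slc1a2 and the neuronal gene Map2 were also higher without overlap, by 0.47 and 0.12. All 5 pericyte and smooth muscle genes above the level were lower in hSOD1G93A, with sums of 17796 to 20801 in NonTG and 13597 to 18871 in hSOD1G93A, and 4 of 5 oligodendrocyte lineage genes were higher, with sums of 5051 to 5583 and 5520 to 7416. The part of these cells in the proteasome values was not tested. The rat Sod1 probe set differed by 0.19 (SE 0.069) between the groups with an adjusted p of 0.9997 in limma, and as it was designed for the rat transcript it does not check the transgene. In bulk RNA, fewer cells of a type and less RNA per cell cannot be told apart.

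The subunit genes were bright and even, and no member passed limma's adjusted threshold between hSOD1G93A and NonTG astrocytes. For 4 of 30 members, or 13.3%, the groups did not overlap, against 7.51% of all probe sets tested. All 30 measured members lay above the dim level, with mean log2 signals of 10.07 to 13.08. The differences, given as hSOD1G93A minus NonTG on the log2 scale, ran from -0.14 for Psmc5 to 0.17 for Psmd12, which are changes of -9.54% and 12.6%. In limma, 0 of 30 members had an adjusted p below 0.05 (all at 0.9997), against 0% of the 18625 probe sets tested. At an unadjusted p below 0.05 there were also 0 of 30, against 2.54% of all probe sets tested. Of the members, 18 were higher and 12 lower in hSOD1G93A, and the median difference was 0.021 beside 0.0070 over all probe sets tested. That median has no stable sign: it was -0.0094 without hSOD1G93A B and -0.0036 with array weights.

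**Figure D1:**
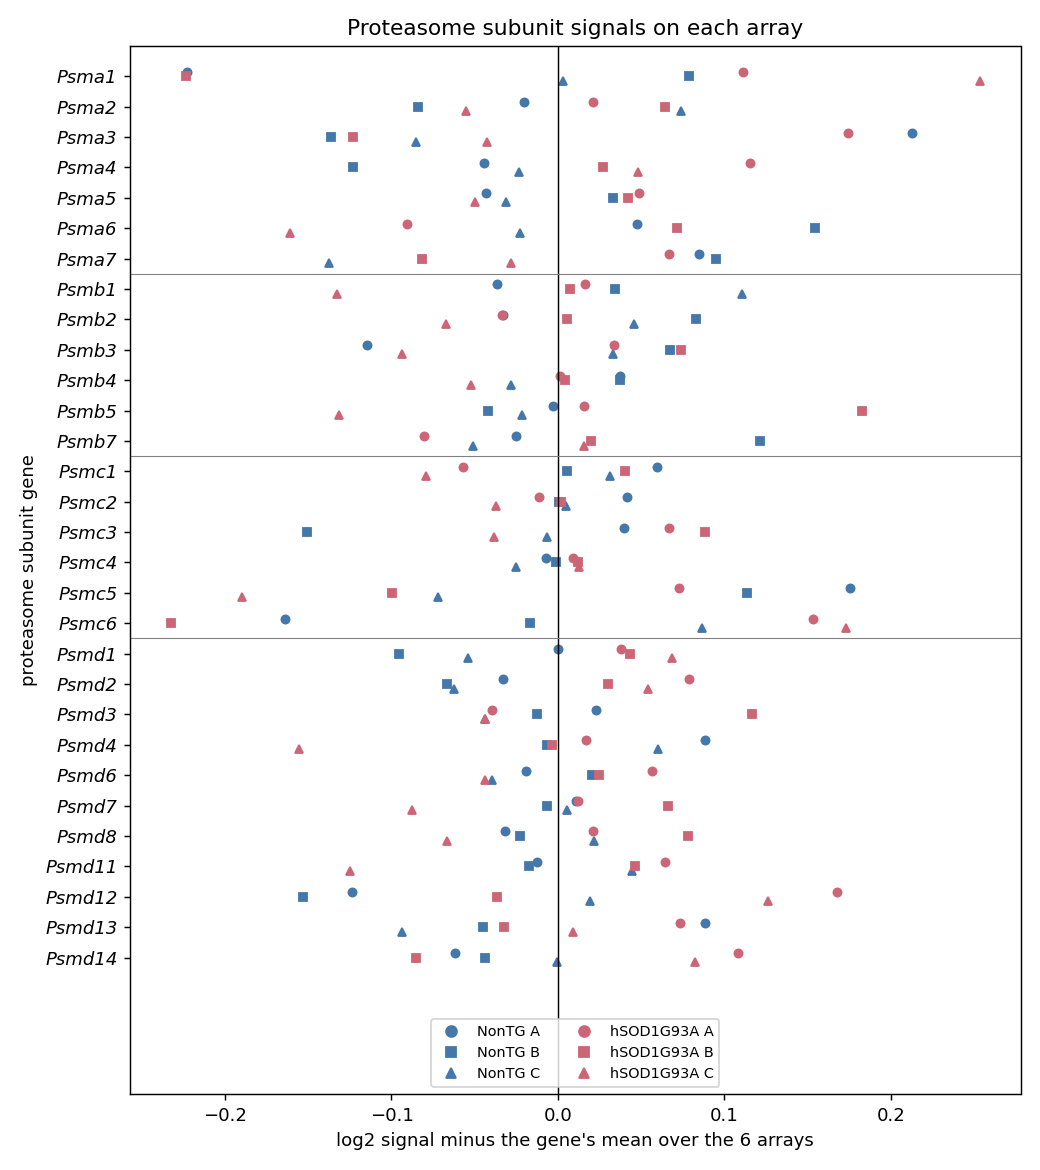
Log2 signal of each of the 30 proteasome subunit genes on each of the 6 arrays, as the deviation from that gene's mean (x axis), with 1 row per gene and lines between the alpha ring, beta ring, ATPase ring and other regulatory particle genes. Blue points are NonTG and red points hSOD1G93A, with the shape giving the replicate letter; the red triangles of hSOD1G93A C are the lowest point in 15 of 30 rows.

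The data bounded these differences closely for the probe set that represents each gene. For all 30 members the whole 95% confidence interval stayed under a 1.5-fold change either way, as it did for 63.6% of all probe sets tested and for 94.4% of the 4342 whose mean log2 signal fell in the members' range. It stayed under 1.2-fold for 21 members, or 70%, against 36.9% of the probe sets in that range. The 9 members whose intervals passed 1.2-fold were Psma1, Psma3, Psma4, Psma6, Psmc5, Psmc6, Psmd1, Psmd4 and Psmd12. Passing it depends on the size of the difference as well as on the width of the interval. Over all members the intervals reached no lower than -22.5%, for Psmc5, and no higher than 30.5%, for Psma1. The median SD within groups was 0.076 for the members, 0.12 for probe sets in the members' range of mean log2 signal and 0.19 for all tested. The median size of a difference was 0.039 for the members against 0.063 for probe sets in that range. Those probe sets lie between the members' lowest and highest mean signal but were not matched to them within the range. The part of brightness in these gaps was not tested.

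**Figure D2:**
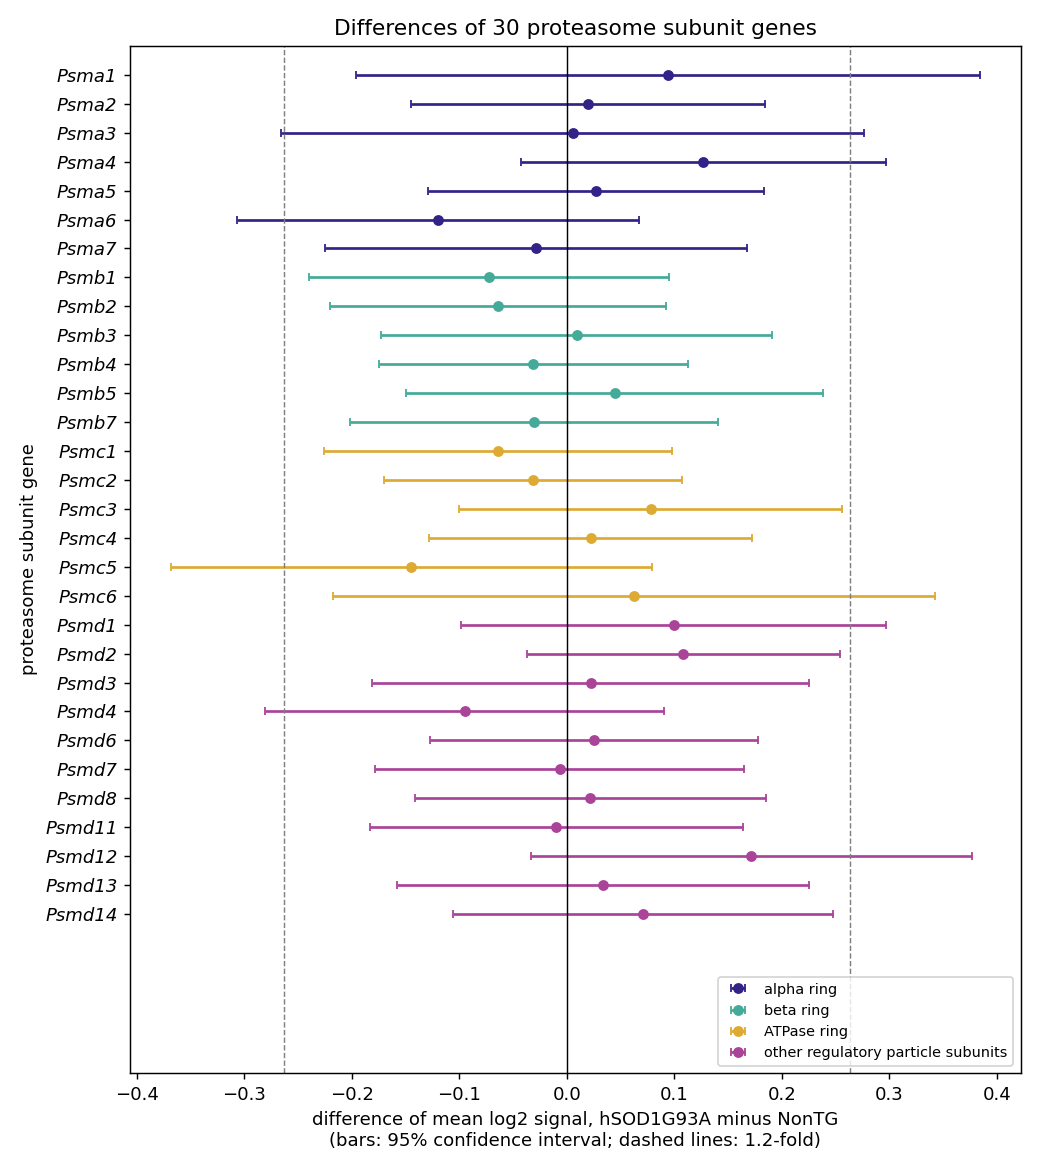
Difference of mean log2 signal, hSOD1G93A minus NonTG (x axis), for each proteasome subunit gene, with bars for limma's 95% confidence interval from 3 arrays per group and colours for the role of the subunit. Every bar crosses 0, and 21 of the 30 lie between the dashed lines at 1.2-fold.

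Promoter sequences of members are shown because the Nrf factors act on these genes through the antioxidant response element. The first 250 bases before each gene's start, from RefSeq on build GRCr8, were searched on both strands for the core of this element as TGACNNNGC or TGAGNNNGC. A window was at hand for 27 of the 31 members, and not for Psma7, Psmd6, Psmd12 and Psmd14. Of the 27, 10 members, or 37%, held a match, against 22.8% of the 33469 windows of all genes. The windows of all genes were not matched to those of the members in base composition. Among the members described array by array below, Psmb5, Psmd1 and Psmd2 held one. The stretches printed here are 5′ to 3′ on the strand of the gene, with the match in capitals.
Psmb5: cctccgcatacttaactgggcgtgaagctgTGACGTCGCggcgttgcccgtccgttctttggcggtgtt
Psmd1: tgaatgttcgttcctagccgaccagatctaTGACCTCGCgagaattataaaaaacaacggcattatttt
Psmd2: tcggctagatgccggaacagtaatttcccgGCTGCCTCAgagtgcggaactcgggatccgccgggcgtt

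The stretch of Psmb5 lies at chr15:32047401-32047469 on the minus strand, and its match begins 60 bases before the gene's start. That of Psmd1 is at chr9:94157776-94157844 on the plus strand, with the match 165 bases before the start. That of Psmd2 is at chr11:93763475-93763543 on the minus strand, 125 bases before the start, and the match reads on the opposite strand. The CCAAT box, searched as CCAAT, was found before 14 of the 27 members, or 51.9%, against 34% of all windows, and the GC box, searched as GGGCGG, before 19 of 27, or 70.4%, against 30.5%. These matches describe the letters and do not show that a factor binds there.

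Of the alpha ring genes, whose products gate the barrel, 5 of 7 were higher and 2 lower in hSOD1G93A, with a median of 0.020. Psma4 (1367837_at) had signals of 2687, 2544 and 2726 on NonTG A, B and C and of 3001, 2823 and 2864 on hSOD1G93A A, B and C. All hSOD1G93A arrays lay above all NonTG arrays. The difference was 0.13 (SE 0.075, 95% interval -0.043 to 0.30, adjusted p = 0.9997 in limma), or 9.20%. Psma6 (1369930_at) read 8948, 9636 and 8520 in NonTG and 8130, 9099 and 7743 in hSOD1G93A. Each hSOD1G93A array lay below the NonTG array of the same letter, but the groups overlapped. The difference of Psma6 was -0.12 (SE 0.083, 95% interval -0.31 to 0.067).

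The other alpha ring members had differences of 0.094 (Psma1), 0.020 (Psma2), 0.0058 (Psma3), 0.027 (Psma5) and -0.028 (Psma7). Psma1 was the most variable of them, with an SD of 0.16 in NonTG and 0.25 in hSOD1G93A. Its signals were lowest on NonTG A at 3745 and hSOD1G93A B at 3744 and highest on hSOD1G93A C at 5212. Its difference was 0.33 within letter A, -0.30 within B and 0.25 within C.

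The beta ring carries the active sites. Psmb5 (1371348_at), the chymotrypsin-like subunit and the main target of proteasome inhibitor drugs, had signals of 7368, 7173 and 7274 on NonTG A, B and C and of 7464, 8380 and 6742 on hSOD1G93A A, B and C. The NonTG arrays were tight, with an SD of 0.019 on the log2 scale, and the hSOD1G93A arrays spread on both sides of them, with an SD of 0.16. The difference was 0.044 (SE 0.086, 95% interval -0.15 to 0.24). Psmb7 (1367656_at), the trypsin-like subunit, read 5487, 6072 and 5389 in NonTG and 5279, 5660 and 5644 in hSOD1G93A. The groups overlapped, and the difference was -0.030 (SE 0.076, 95% interval -0.20 to 0.14).

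Psmb1, Psmb2, Psmb3 and Psmb4 encode beta subunits without an active site. Psmb1 (1398812_at) had the most negative difference of the ring at -0.072 (SE 0.074), with signals of 7671, 8059 and 8497 in NonTG and 7957, 7910 and 7178 in hSOD1G93A. Its groups overlapped, with hSOD1G93A C below every NonTG array. Psmb2 differed by -0.064, Psmb3 by 0.0094 and Psmb4 by -0.031. Over the 6 measured beta ring genes 2 were higher and 4 lower, the median was -0.031, and the groups overlapped for all 6. The intervals of these 6 genes lay between -15.3%, for Psmb1, and 18.0%, for Psmb5.

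The ATPase ring of the regulatory particle is built from Psmc1 to Psmc6, and 3 of these genes were higher and 3 lower, with a median of -0.0045. Psmc5 (1367833_at) read 3291, 3153 and 2772 on NonTG A, B and C and 3065, 2720 and 2555 on hSOD1G93A A, B and C. Within each letter the hSOD1G93A array was lower, while the groups overlapped. The difference was -0.14 (SE 0.099, 95% interval -0.37 to 0.079, adjusted p = 0.9997 in limma), the most negative of all members.

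Psmc3 (1387120_at) had the largest positive difference of the ring at 0.078 (SE 0.079), with signals of 5130, 4495 and 4968 in NonTG and 5227, 5304 and 4859 in hSOD1G93A. NonTG B was the low array, and the groups overlapped. Psmc4 (1398869_at) was the steadiest gene of the complex, at 3938, 3954 and 3888 in NonTG and 3982, 3990 and 3991 in hSOD1G93A. All hSOD1G93A arrays lay above all NonTG arrays, though the difference was only 0.022 (SE 0.067), or 1.55%. Psmc1 differed by -0.064, Psmc2 by -0.031 and Psmc6 by 0.062.

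Psmd genes encode the remaining regulatory particle subunits, and 8 of 11 were higher and 3 lower, with a median of 0.025. Psmd2 (1398858_at), a large scaffold of the base that binds ubiquitin shuttle factors, read 5451, 5325 and 5342 in NonTG and 5892, 5695 and 5790 in hSOD1G93A. The groups were apart and the difference was 0.11 (SE 0.065, 95% interval -0.037 to 0.25), or 7.81%. Psmd1 (1369992_at), the other large scaffold of the base, read 1076, 1008 and 1037 in NonTG and 1105, 1109 and 1129 in hSOD1G93A. These groups were apart as well, with a difference of 0.099 (SE 0.088, 95% interval -0.098 to 0.30). Neither passed in limma (adjusted p = 0.9997 for both).

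Psmd12 (1392983_at), a structural subunit of the lid, had the largest difference of all members, each read by its brightest probe set. Its signals were 2014, 1974 and 2224 on NonTG A, B and C and 2464, 2140 and 2395 on hSOD1G93A A, B and C. hSOD1G93A B lay below NonTG C, so the groups overlapped, but within each letter hSOD1G93A was higher. The difference was 0.17 (SE 0.091, 95% interval -0.034 to 0.38), with an unadjusted p of 0.0914. With the replicate letter as a block its unadjusted p was 0.0494 and its adjusted p 0.834. It was the only member with an unadjusted p below 0.05 in that fit, 1 of 30 against 5.85% of all probe sets tested.

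Psmd4 (1386930_at), a ubiquitin receptor of the cap, lay at the other end of the Psmd genes. It read 2600, 2435 and 2550 in NonTG and 2474, 2439 and 2196 in hSOD1G93A, a difference of -0.095 (SE 0.082) with overlapping groups. Psmd14, the deubiquitinase that removes ubiquitin chains before degradation, differed by 0.071 (SE 0.078). The lid subunits Psmd3, Psmd6, Psmd7, Psmd8, Psmd11 and Psmd13 had differences of 0.022, 0.025, -0.0064, 0.022, -0.0097 and 0.034.

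The groups did not overlap for 4 of 30 members, or 13.3%, all higher in hSOD1G93A: Psma4, Psmc4, Psmd1 and Psmd2. Over all probe sets tested the share was 7.51%. The count depends on single arrays: leaving out NonTG A, B or C gave 7, 6 and 8 members, and leaving out hSOD1G93A A, B or C gave 5, 12 and 10. With an array left out fewer values have to be apart, and the share of all probe sets tested was then 14.4% to 22.6%. Without hSOD1G93A A the members' share of 16.7% lay below the 22.6% of all probe sets, without hSOD1G93A B it was 40% against 15.5%, and without hSOD1G93A C it was 33.3% against 14.4%. Without NonTG A, B or C it was 23.3%, 20% and 26.7% against 20%, 15.6% and 14.6%. The sign of the difference was the same within letters A, B and C for 9 members, or 30%, 5 higher and 4 lower, against 25.8% of all probe sets tested.

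The core and the regulatory particle were within each other's spread. The median difference was 0.0058 over the 13 measured core genes, 7 higher and 6 lower, and 0.022 over the 17 regulatory genes, 11 higher and 6 lower. The core median minus the regulatory median was -0.016. For each array, the value of a particle was taken as the median over its genes of the log2 signal minus the gene's mean over all arrays. The core value was -0.025, 0.037 and -0.023 on NonTG A, B and C and 0.021, 0.020 and -0.052 on hSOD1G93A A, B and C. The regulatory value was -0.000068, -0.017 and -0.00062 on the NonTG arrays and 0.057, 0.025 and -0.038 on the hSOD1G93A arrays.

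For both particles the hSOD1G93A arrays spanned wider than any gap between the group means. The core value averaged -0.0036 ± 0.035 (SD, n = 3) in NonTG and -0.0037 ± 0.042 (SD, n = 3) in hSOD1G93A, and the regulatory value -0.0058 ± 0.0095 and 0.014 ± 0.048. Core minus regulatory averaged 0.0022 ± 0.045 in NonTG and -0.018 ± 0.016 in hSOD1G93A, with overlapping arrays. The core median turned negative without NonTG C (-0.035) and without hSOD1G93A A, B or C (-0.0052, -0.025 and -0.0090), and also after median centring (-0.015) and with array weights (-0.030). The regulatory median was 0.0051 without hSOD1G93A A and 0.047 without hSOD1G93A C, and -0.0040 within letter C alone.

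**Figure D3:**
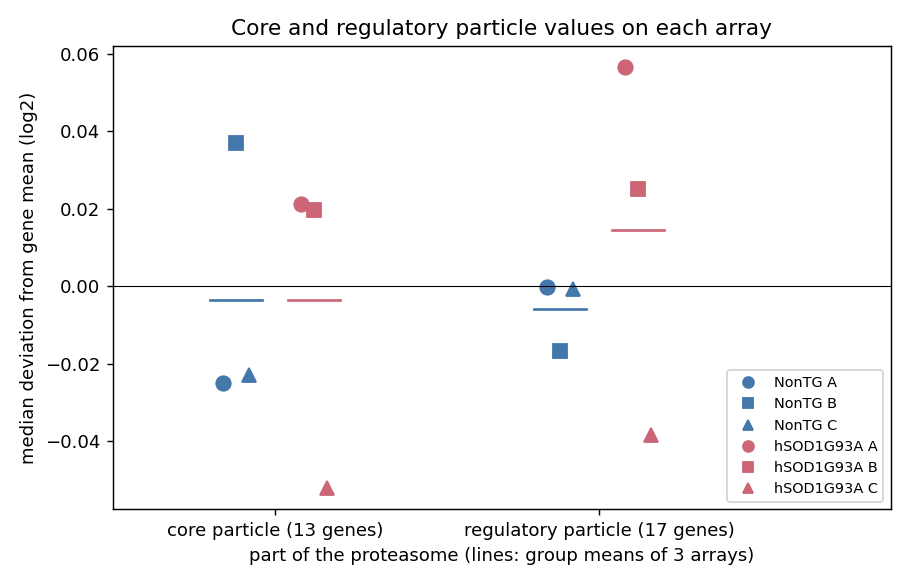
Value of the core particle (13 genes) and of the regulatory particle (17 genes) on each array, as the median over genes of the log2 signal minus the gene's mean over the 6 arrays, with horizontal lines for the group means of 3 arrays. In both particles the hSOD1G93A arrays A and B lie above 0 and hSOD1G93A C is the lowest array.

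Many members, but not all, had the same low array. hSOD1G93A C gave the lowest signal of all arrays for 15 of 30 members, or 50%. They were 6 of 13 in the core and 9 of 17 in the regulatory particle. For 4 members hSOD1G93A C gave the highest signal. It was the lowest array for 13.8% of all probe sets tested and for 15.1% of those in the members' range of mean log2 signal. Its median deviation was -0.044 over the members and -0.0084 over probe sets in that range. Its 3' to 5' ratios, a measure of RNA integrity, were 1.003 for Gapdh and 1.142 for actin, inside the range of the other arrays (0.954 to 1.012 and 1.101 to 1.19). The pattern was seen in these values and has no test here, and the part of RNA quality or culture in it was not tested.

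Several members had further probe sets. For Psmc6 the 2 others above the dim level differed by 0.26 (SE 0.11) and 0.26 (SE 0.14), against 0.062 (SE 0.12) for the brightest one, and the first of them had an unadjusted p of 0.0354 and an adjusted p of 0.9997 in limma. For Psmd14 they differed by 0.16 (SE 0.13, without overlap of the groups) and -0.087 (SE 0.080), for Psmd11 by 0.024 (SE 0.082) and for Psmd7 by 0.031 (SE 0.084). In all, 36 of the 40 member probe sets were above the dim level. The 4 below it belong to Psmb5, Psmc4 and Psmd11, with signals of 2.87 to 62.3, and they were not tested. When all probe sets of a gene were averaged, these dim ones included, the difference was 0.36 for Psmb5, 0.19 for Psmc6, 0.095 for Psmd11 and -0.92 for Psmc4.

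The inducible catalytic subunits, which replace the constitutive ones in the immunoproteasome after interferon, were measured beside the members. Psmb8 (1367786_at), the counterpart of Psmb5, read 268.4, 404.0 and 342.0 on NonTG A, B and C and 186.4, 324.9 and 354.5 on hSOD1G93A A, B and C. Psmb9 (1370186_at), the counterpart of Psmb6, read 898.3, 1176 and 804.5 in NonTG and 816.9, 995.2 and 798.6 in hSOD1G93A. Psmb10 (1374033_at), the counterpart of Psmb7, read 799.3, 917.9 and 657.9 in NonTG and 752.5, 760.0 and 581.8 in hSOD1G93A. The groups overlapped for all 3 genes, and B was the highest NonTG array for each.

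The differences were -0.26 (SE 0.26) for Psmb8, -0.13 (SE 0.15) for Psmb9 and -0.18 (SE 0.16) for Psmb10. None passed in limma (adjusted p = 0.9997 for each). Within the letters A, B and C, Psmb10 differed by -0.087, -0.27 and -0.18, Psmb9 by -0.14, -0.24 and -0.010 and Psmb8 by -0.53, -0.31 and 0.052. Their intervals were wider than those of the constitutive subunits, reaching from -44.1% to 24.3% for Psmb8.

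**Figure D4:**
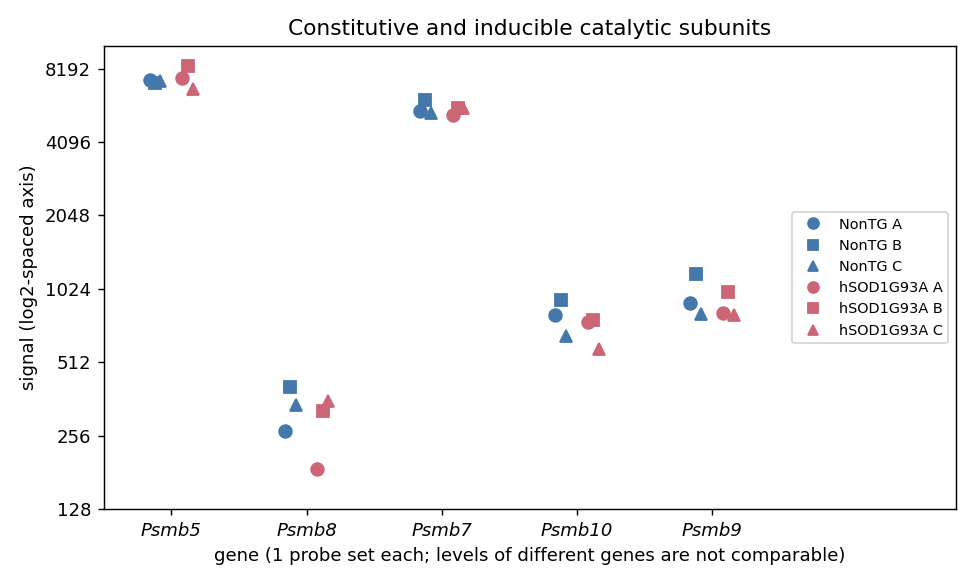
Signals of the constitutive catalytic subunits Psmb5 and Psmb7 and of the inducible subunits Psmb8, Psmb10 and Psmb9 on each array, on a log2-spaced axis, with blue for NonTG, red for hSOD1G93A and the shape for the replicate letter. For every gene the red and blue points overlap; levels of different genes are read by different probe sets and are not comparable.

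The genes that assemble, activate, feed and control the proteasome gave no call either. Of 55 symbols listed, the inducible subunits and some older symbols included, 43 were read by a probe set of their own, and all 43 were above the dim level. Of these 20 were higher and 23 lower in hSOD1G93A, with a median difference of -0.0038, and 0 had an adjusted p below 0.05 in limma, with 0 also at an unadjusted p below 0.05. The groups did not overlap for 4 of the 43, or 9.3%, near the 7.51% of all probe sets tested. These were Psmg4, Nfyb and Uba6, higher in hSOD1G93A, and Vcp, lower.

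Among 8 assembly chaperones, 3 were higher and 5 lower. Psmg4, which helps to build the alpha ring, differed by 0.12 (SE 0.081), Psmd5 and Psmd10, chaperones of the ATPase ring, by -0.089 (SE 0.083) and -0.088 (SE 0.10). Of 6 further subunits and factors bound to the regulatory particle 4 were higher and 2 lower. The deubiquitinase Usp14 differed by -0.098 (SE 0.069), the deubiquitinase Uchl5 by 0.068 (SE 0.10) and the ubiquitin ligase Ube3c by 0.062 (SE 0.10). Of 4 alternative activators and inhibitors 1 was higher and 3 lower. The activator Psme2 differed by -0.078 (SE 0.13), the inhibitor Psmf1 by 0.042 (SE 0.14) and the activator Psme4 by -0.023 (SE 0.10).

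Nfe2l1, the factor that raises proteasome genes, read 740.5, 692.2 and 861.0 in NonTG and 652.3, 803.7 and 808.6 in hSOD1G93A. Its groups overlapped and its difference was -0.019 (SE 0.13). Of the 8 factors that control proteasome gene transcription 5 were higher and 3 lower. Ddi2, the protease that activates the Nfe2l1 product, differed by 0.26 (SE 0.19), Nfya, a subunit of the factor that binds the CCAAT box, by 0.17 (SE 0.14), and Ngly1, which removes sugars from the Nfe2l1 product, by 0.093 (SE 0.097).

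In the ubiquitin system before the proteasome 3 of 6 measured genes were higher and 3 lower. Uba6, an enzyme that activates ubiquitin, differed by 0.17 (SE 0.11), and the conjugating enzymes Ube2d2 and Ube2n by 0.083 (SE 0.082) and -0.13 (SE 0.15). Of 8 shuttle factors and parts of the p97 unfoldase system 4 were higher and 4 lower. Vcp, which encodes p97 itself, read 8243, 8577 and 7890 in NonTG and 7738, 7886 and 7809 in hSOD1G93A. All hSOD1G93A arrays were below all NonTG arrays, with a difference of -0.076 (SE 0.065). Nsfl1c, a cofactor of p97, differed by 0.046 (SE 0.090), and the shuttle factor Ubqln2 by -0.036 (SE 0.088).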

How the data were processed

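RNA was measured on 6 arrays of an Affymetrix rat expression platform. According to the submitters' processing notes, the authors used GCOS 1.4 and its MAS5 algorithm to turn each scan into 1 intensity per probe set, deposited on a linear scale. GC-RMA and log values, named in the design text, were not what the table held. Of 31042 probe sets that are not controls, 18625 with a mean log2 above the 40th percentile were tested. Log2 values, with no pseudocount or further scaling, were compared with limma 3.58.1 (R 4.3.3), using a linear model and eBayes with a prior variance that follows intensity. Tests were two-sided, p-values were adjusted by Benjamini-Hochberg across the tested table, and calls needed an adjusted p below 0.05. The number of arrays limits the precision.

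Genes given array by array were the catalytic subunits, those whose groups did not overlap and the largest difference each way per role. Members and lists were chosen with earlier results of these data known. Whether arrays of one letter were handled together is not given in the sources used here. Log2 deviations from the group means correlated at 0.297 (A), 0.254 (B) and 0.199 (C) between arrays of one letter. Between arrays of different letters the values ran from -0.277 to 0.0249. Deviations from a group mean cancel out over its arrays, so part of this contrast is built in. The letter as a replicate block was an alternative. The other alternatives were scaling, filter, pseudocount, variance model, choice of probe set and each array left out. The fit was also run on simulated data with independent errors and planted changes larger than the difference of any member. That run does not measure how well changes as small as those of the members are found.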

Additional observations from a re-analysis of the deposited data

How the results depend on the processing

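No member had an adjusted p below 0.05 in limma under any alternative run, and the lowest adjusted p of a member over these alternatives was 0.793, without hSOD1G93A A. In limma with the replicate letter as a block, or as an estimated correlation, 1 member had an unadjusted p below 0.05 (Psmd12). This was 1 of 30 brightest probe sets, against 5.85% and 5.4% of all probe sets tested. Averaging the probe sets of each gene also gave 1 member, Psmc4 at -0.92, where a dim probe set enters the mean. The share was 2.55% over all genes and remaining probe sets tested in that fit. Averaging also moved Psmb5 to 0.36 and Psmc6 to 0.19. Leaving out an array gave 0 to 2 members at an unadjusted p below 0.05, the 2 being Psma6 and Psmd12 without hSOD1G93A B, beside 2.09% of all probe sets in that fit and 1.83% to 6.35% over these fits. Members without overlap between groups numbered 5 to 12 when an array was left out, beside 14.4% to 22.6% of all probe sets tested, and the lowest count, 16.7% of the members, lay below its 22.6%. The median over the members then ran from -0.0094 to 0.037, the core median from -0.035 to 0.012 and core minus regulatory from -0.056 to -0.0095. Within letter C the median over the members was -0.021, and within letter B core minus regulatory was -0.062. The number of members higher in hSOD1G93A was 15 after median centring, 21 after quantile normalization and 13 with array weights, against 18.

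Some differences changed sign, among them that of Psma1, 0.094 in the main fit, and the cause was not tested. Median centring gave -0.00082 for Psma2, -0.015 for Psma3 and -0.012 for Psmb3. Quantile normalization gave -0.0047 for Psma3, 0.0030 for Psmb4, 0.015 for Psmc2, 0.0059 for Psmd7 and 0.0056 for Psmd11. Array weights gave -0.000082 for Psma2, -0.00051 for Psma5, -0.040 for Psmb3, -0.0067 for Psmb5 and -0.0070 for Psmd8. The mean over probe sets gave -0.92 for Psmc4, 0.012 for Psmd7 and 0.095 for Psmd11. With an array left out, differences ran from -0.0090 to 0.23 for Psma1, -0.017 to 0.062 for Psma2, -0.080 to 0.11 for Psma3, -0.10 to 0.012 for Psma7, -0.046 to 0.059 for Psmb3, -0.036 to 0.12 for Psmb5, -0.063 to 0.023 for Psmb7, -0.0084 to 0.19 for Psmc6, -0.031 to 0.050 for Psmd3, -0.041 to 0.036 for Psmd7, -0.012 to 0.061 for Psmd8, -0.044 to 0.050 for Psmd11 and -0.0051 to 0.086 for Psmd13.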
